A study of Mus musculus with 6 samples.

Results

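The genes described here are the heat shock proteins and cytosolic chaperones of sorted mammary macrophages, with the factors that switch them on. They were taken from the deposited gene table by symbol, as protein-coding rows of the Hsp70, Hsp110, Hsp90, Hsp60, Hsp10 and small heat shock protein families, the DnaJ co-chaperones of classes A, B and C, the subunits of the CCT chaperonin with Tcp1, the BAG proteins, and Hsf1 and Hsf2. The endoplasmic reticulum Hsp70 gene Hspa5 was left out, as were Hspbap1 and Hspg2. This gave 91 of 43432 rows, which carry 90 symbols because Dnajc19 is listed on 2 rows. The rule used names and no measured value. It also takes in proteins of other compartments, such as Hsp90b1 of the endoplasmic reticulum, Hspa9 and Hspd1 of mitochondria and Hspb11, which is a subunit of the transport complex of cilia.

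RNA was sequenced from macrophages of female mice of strain FVB/N and genotype MMTV-PyMT, with 3 libraries at 11 weeks of age and 3 at 8 weeks. The transgene, present at both ages, expresses the middle T oncogene of polyomavirus in mammary epithelium under a viral promoter, so the comparison is between a later and an earlier stage of tumour growth and has no tumour-free group. Minced glands were digested with collagenase and DNase with warming and shaking, and live cells positive for CD45, MHC class II and CD14 were sorted. Samples are titled an1, an2 and an3 within each age, and no label spells out whether the prefix means an animal. The p-values reflect how far these samples differ from each other, and whether that spread is between animals or technical is not stated.

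Chaperones bind proteins that are not yet folded or have lost their fold and give them further chances to fold. Hsp70 proteins do this in cycles of ATP hydrolysis that DnaJ proteins start and that nucleotide exchange factors, the Hsp110 and BAG proteins among them, end. Hsp90 acts later on kinases and receptors, and the CCT ring folds actin and tubulin. Heat shock factor 1, the product of Hsf1, is held back by chaperones at rest, and under protein stress it forms trimers that bind repeats of the unit GAA in promoters and raise a subset of these genes sharply. Macrophages meet such stress in fever, during phagocytosis and in tumours.

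The repeats can be read in the RefSeq promoter windows of this set, which run from 250 bases before to 50 bases after each start site in GRCm38.p6. The search used GAANNTTC and TTCNNGAA for 2 units, and GAANNTTCNNGAA and TTCNNGAANNTTC for 3 units. Each pair of motifs covers both strands, and the longer motifs contain the shorter. The 4 windows shown belong to the heat-inducible members with the lowest p-values that hold a match, and to Hspe1, which has the longest run. They are written in the direction of transcription, and capitals mark the matched bases. Hspa1b is read from chr17:34959189-34959488 on the minus strand, Hspa1a from chr17:34972107-34972406 on the minus strand, Hsph1 from chr5:149636266-149636565 on the minus strand and Hspe1 from chr1:55087898-55088197 on the plus strand.
Hspa1b: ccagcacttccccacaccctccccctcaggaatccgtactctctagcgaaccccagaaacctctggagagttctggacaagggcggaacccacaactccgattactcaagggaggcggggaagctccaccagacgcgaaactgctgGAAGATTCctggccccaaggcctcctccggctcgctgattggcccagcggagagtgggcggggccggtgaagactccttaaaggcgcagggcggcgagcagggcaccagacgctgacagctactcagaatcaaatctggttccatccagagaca
Hspa1a: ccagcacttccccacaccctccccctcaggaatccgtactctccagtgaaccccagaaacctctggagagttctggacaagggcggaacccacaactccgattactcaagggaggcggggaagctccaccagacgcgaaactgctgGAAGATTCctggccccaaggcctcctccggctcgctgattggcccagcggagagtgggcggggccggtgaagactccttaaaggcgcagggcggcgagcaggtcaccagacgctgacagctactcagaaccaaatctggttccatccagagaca
Hsph1: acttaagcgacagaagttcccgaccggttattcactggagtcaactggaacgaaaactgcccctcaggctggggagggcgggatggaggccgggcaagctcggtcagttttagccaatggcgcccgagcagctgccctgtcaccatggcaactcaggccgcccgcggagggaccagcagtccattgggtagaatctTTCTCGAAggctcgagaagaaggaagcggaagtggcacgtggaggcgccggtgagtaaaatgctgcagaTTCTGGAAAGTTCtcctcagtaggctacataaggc
Hspe1: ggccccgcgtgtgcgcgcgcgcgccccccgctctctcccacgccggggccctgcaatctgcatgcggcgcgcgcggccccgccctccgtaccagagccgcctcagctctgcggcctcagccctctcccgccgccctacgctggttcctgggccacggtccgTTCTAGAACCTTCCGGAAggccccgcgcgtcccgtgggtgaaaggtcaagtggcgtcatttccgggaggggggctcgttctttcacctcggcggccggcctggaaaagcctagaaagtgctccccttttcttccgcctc
Hspa1b and Hspa1a are neighbouring copies of the inducible Hsp70 gene, and their windows were identical at 296 of 300 bases. Both hold the run GAAGATTC, which begins 104 bases before the start site. The Hsph1 window shown holds TTCTCGAA, beginning 54 bases before the start site, and the longer TTCTGGAAAGTTC, beginning 15 bases after it. Counted from another listed start site of Hsph1, the same runs begin 33 bases before and 36 bases after. The Hspe1 window holds an unbroken run of 18 bases, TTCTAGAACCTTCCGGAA. Hspd1 lies head to head with Hspe1, and one of its windows, chr1:55087883-55088182, overlaps that of Hspe1 and takes in the same run.

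The list of 15 heat-inducible members includes Hspa8 and Hsp90ab1, which are expressed constitutively and also respond to heat. Of the 15, 12 had a promoter window in the table, and 10 of these (83.3%) held at least the 2-unit motif. Outside that list 11 of 61 members with a window did (18%), and over all genes 4587 of 27025 (17%). The 10 were Hspa1a, Hspa1b, Hsph1, Hspd1, Hspe1, Dnaja1, Dnajb4, Hspb1, Hspb8 and Bag3, of which Hspa1a and Hspa1b are near-identical and Hspd1 and Hspe1 share their run. The windows of Hspa4l and Dnajb1 held none of these letters. The 3-unit motif stood in the windows of Hsph1, Hspd1, Hspe1 and Dnajb6, against 0.662% of all genes. Counted by window, the 2-unit motif stood in 61.1% of the 18 windows of heat-inducible members and in 15.1% of all 32851. Hsp90aa1, Hsp90ab1 and Hspa8 were not in the promoter table. A match describes the letters of the window and does not show that a factor binds there.

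Values are normalized counts, which are gene counts divided by a factor for each library and are not scaled to gene length. Libraries held 38784434 to 75004875 recovered reads, with mitochondrial ribosomal RNA at 35.2% to 51.8% of normalized counts. The sum of 11 macrophage markers, Csf1r, Cd68, Mrc1 and C1qa among them, was 844107 to 936142 normalized counts at 11 weeks and 772807 to 972036 at 8 weeks, far above the sum of any other marker list, so macrophage markers were present as labelled. Lyz2 alone held 441201.3 to 540158 of this sum at 11 weeks and 411884.8 to 623180.1 at 8 weeks. Single macrophage markers were not all alike between the ages. Mrc1, Fcgr1, C1qb and Cd14 were higher in all 11-week libraries (36.4%, where all genes gave 6.81%). Csf1r was lower in all of them (9.09%, where all genes gave 5.12%). Markers of other cells were also present. The 10 mammary epithelium markers summed to 23773 to 45462 at 11 weeks and 7652 to 11239 at 8 weeks, with 9 of 10 positive. Csn3 alone held 19883.5 to 32482.5 of this sum at 11 weeks and 5232.1 to 8277.1 at 8 weeks. Of the 10, 4 were higher in all 11-week libraries (40%, where all genes gave 6.81%). The 8 neutrophil markers summed to 4408 to 6507 at 11 weeks and 1714 to 4238 at 8 weeks, with 6 of 7 tested positive. Sums of 6 fibroblast markers were 1290 to 3023 at 11 weeks and 585 to 1050 at 8 weeks, and those of 5 endothelial markers 521 to 1072 at 11 weeks and 210 to 400 at 8 weeks. None of these 4 sums overlapped between the ages, and all were higher at 11 weeks. Single endothelial markers were mixed, with 3 of 5 positive and 2 negative. Cdh5 was higher in all 11-week libraries and Tek lower in all (20% each, where all genes gave 6.81% and 5.12%). T cell, B cell, NK cell and dendritic cell markers summed to at most 3374, 409, 140 and 4709 at 11 weeks and 3209, 302, 160 and 6443 at 8 weeks. None of the matched markers was at 0 in every library. The part of these cells in the chaperone values was not tested, and in bulk RNA fewer cells of a type and less RNA per cell cannot be told apart.

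Replicates differed unevenly. Among the 69 members that averaged 100 normalized counts or more, 11-week replicate 3 was the library farthest from the mean of all 6 for 22 (31.9%), where it was so for 22.5% of 10727 genes at that level. The median SD of the log2 values was 0.43 at 11 weeks and 0.30 at 8 weeks for these members, and 0.41 at 11 weeks and 0.37 at 8 weeks for all genes at that level.

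No member passed an adjusted p of 0.05 between the ages by limma. The test was limma on log2 values, adjusted over all genes. Of 86 members tested with limma, those with a mean of at least 1 in either age, 0 were called, against 0.0507% of all 21675 genes tested, that is 8 higher (0.0369%) and 3 lower (0.0138%) at 11 weeks. Of the 86, 5 members that were higher and 8 that were lower at 11 weeks had unadjusted limma p-values under 0.05, where all genes gave 4.76% and 3.27%. All of these are among the 69 members that averaged 100 normalized counts or more. Of 10727 genes at that level, 550 were higher and 553 lower by the same cut. The edgeR quasi-likelihood test and limma-voom on the recovered reads also called 0 members, where the edgeR test called 0.0646% of all genes, 0.06% as higher and 0.00461% as lower. DESeq2 on the same reads called Dnajb14 and Hspa1b as lower (DESeq2 adjusted p = 0.0373 and 0.0325), and 0 members as higher, where it called 2.63% of 15874 genes, 1.67% as higher and 0.964% as lower. The authors' deposited table gives the same 2 genes adjusted p-values of 0.042 and 0.044, and it has 0.78% of all genes as lower and 1.13% as higher under 0.05. It holds an adjusted p for 77 members.

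Over the whole set the members were balanced, with 40 positive and 46 negative log2 fold changes and a median of -0.055, beside a median of 0.052 over all genes tested. Among 69 members that averaged 100 normalized counts or more, 33 were positive and 36 negative with a median of -0.008, beside -0.021 over 10727 genes at that level. Fold changes are 11 weeks minus 8 weeks on the log2(normalized count + 1) scale. In 9 members every 11-week library lay below every 8-week library, which is 10.5% of those tested, where all genes gave 5.12%. These were Hspa1b, Hspa4l, Dnaja1, Dnajb1, Dnajb13, Dnajb14, Dnajc28, Hspa9 and Hsp90b1. All 9 averaged 100 normalized counts or more, and among members at that level they are 13%, where genes at that level gave 7.63%. In 6 members every 11-week library lay above, which is 6.98%, where all genes gave 6.81%. These were Hsf1, Bag2, Bag5, Cct2, Cct6a and Dnajc21, all at that level too, where they are 8.7% of members and genes gave 7.66%. The families differed in their medians, which ran from -0.66 for the 3 Hsp110 genes to 0.66 for the 6 BAG genes.

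**Figure D1:**
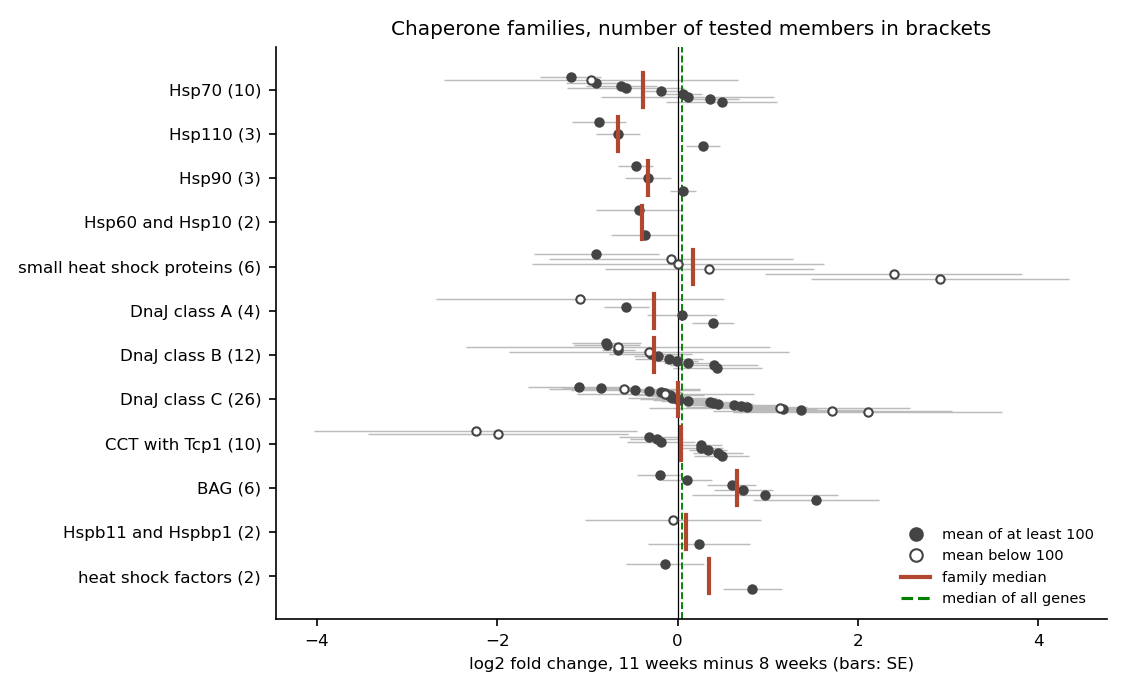
Log2 fold change of each tested member, 11 weeks minus 8 weeks, by family, with its standard error as a bar. Filled points average 100 normalized counts or more and open points a lower mean; red ticks mark family medians, and the dashed line the median of all genes tested, 0.052. Hsp110, Hsp70 and Hsp90 have medians below 0 and BAG a median of 0.66, and limma called no member at an adjusted p of 0.05.

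The inducible Hsp70 genes were lower at 11 weeks in their means, and Hspa1b had the lowest log2 fold change of the 69 members that averaged 100 normalized counts or more. Hspa1b (ENSMUSG00000090877, chromosome 17 from 34956436 to 34959238) had 1046.4, 804.5 and 1200 normalized counts in the 11-week libraries, against 1876, 3942.8 and 1610 in the 8-week libraries. The ages did not overlap, and 8-week replicate 2 stood well above the other libraries. On the log2 scale the fold change was -1.19 (SE 0.34, adjusted p = 0.31 by limma), and without 8-week replicate 2 it was -0.79. Hspa1a (ENSMUSG00000091971, chromosome 17 from 34969190 to 34972156) had 4854.9, 4148.3 and 2213.3 normalized counts at 11 weeks, against 6343.1, 11080.2 and 4186.8 at 8 weeks. Here the ages overlapped, since 11-week replicate 1 lay above 8-week replicate 3. On the log2 scale the fold change was -0.91 (SE 0.33, adjusted p = 0.479 by limma), and it was -0.54 without 8-week replicate 2 and -0.57 without 11-week replicate 3.

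The coding sequences of Hspa1a and Hspa1b were identical at 1918 of 1929 aligned bases (99.4%), so reads cannot be assigned to either copy with certainty. Summed over both copies, the 11-week libraries held 5901.3, 4952.8 and 3413.3 normalized counts, against 8219.1, 15023 and 5796.8 in the 8-week libraries. The sum was 4756 ± 1256 at 11 weeks and 9680 ± 4783 at 8 weeks (n = 3 each, SD), and 11-week replicate 1 lay just above 8-week replicate 3.

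Of the constitutive Hsp70 genes, Hspa8 and Hspa9 differed little between libraries. Hspa8, which encodes the housekeeping cytosolic Hsp70, had 3842.5, 3937.6 and 3724.2 normalized counts at 11 weeks, against 3300.8, 3620 and 4170.6 at 8 weeks. All 11-week values lay inside the 8-week range, and the log2 fold change was 0.06 (SE 0.21, adjusted p = 0.949 by limma). Hspa9, the mitochondrial Hsp70, had 3006.7, 2744 and 2924.8 at 11 weeks, against 3208.1, 3169.7 and 3508.6 at 8 weeks. These did not overlap, yet the difference was small, at -0.19 (SE 0.22, adjusted p = 0.833 by limma). Hspa13, an Hsp70 relative of the microsomes, averaged 816 ± 317 at 11 weeks and 1260 ± 561 at 8 weeks, and Hspa14, which works at the ribosome, 1472 ± 480 at 11 weeks and 1116 ± 232 at 8 weeks (n = 3, SD; adjusted p = 0.74 and 0.809 by limma). Hspa12a and Hspa12b, distant relatives of Hsp70, averaged 181 ± 28.9 and 208 ± 124 at 11 weeks and 343 ± 260 and 364 ± 498 at 8 weeks (n = 3, SD), with 8-week replicate 3 the highest library for both. The testis-type genes Hspa1l and Hspa2 stayed low, at 11 ± 19.1 and 271 ± 205 at 11 weeks and 8.2 ± 9.73 and 163 ± 17.3 at 8 weeks (n = 3, SD).

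The Hsp110 genes, whose products release ADP from Hsp70, split into inducible and constitutive members. Hsph1, the heat-inducible Hsp110 (ENSMUSG00000029657, chromosome 5 from 149614287 to 149636376), had 4932.1, 4989 and 2777.1 normalized counts at 11 weeks, against 8531.2, 10578.7 and 4635.2 at 8 weeks. It was highest in 8-week replicate 2 and lowest in 11-week replicate 3, as Hspa1a was, and 8-week replicate 3 lay among the 11-week libraries. The log2 fold change was -0.87 (SE 0.30, adjusted p = 0.431 by limma). Hspa4l (ENSMUSG00000025757, chromosome 3 from 40744495 to 40796103) had 2711.6, 3459.7 and 1985.8 at 11 weeks, against 4100.6, 4373.6 and 4117.6 at 8 weeks. Its 8-week libraries were close together and all above the 11-week libraries, with a log2 fold change of -0.66 (SE 0.24, adjusted p = 0.479 by limma). Hspa4, the widely expressed member, pointed the other way, with 10326.7, 14763.4 and 14723.6 at 11 weeks, against 11885.5, 9676.9 and 10976 at 8 weeks. Its ages overlapped, and the log2 fold change was 0.28 (SE 0.19, adjusted p = 0.768 by limma).

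**Figure D2:**
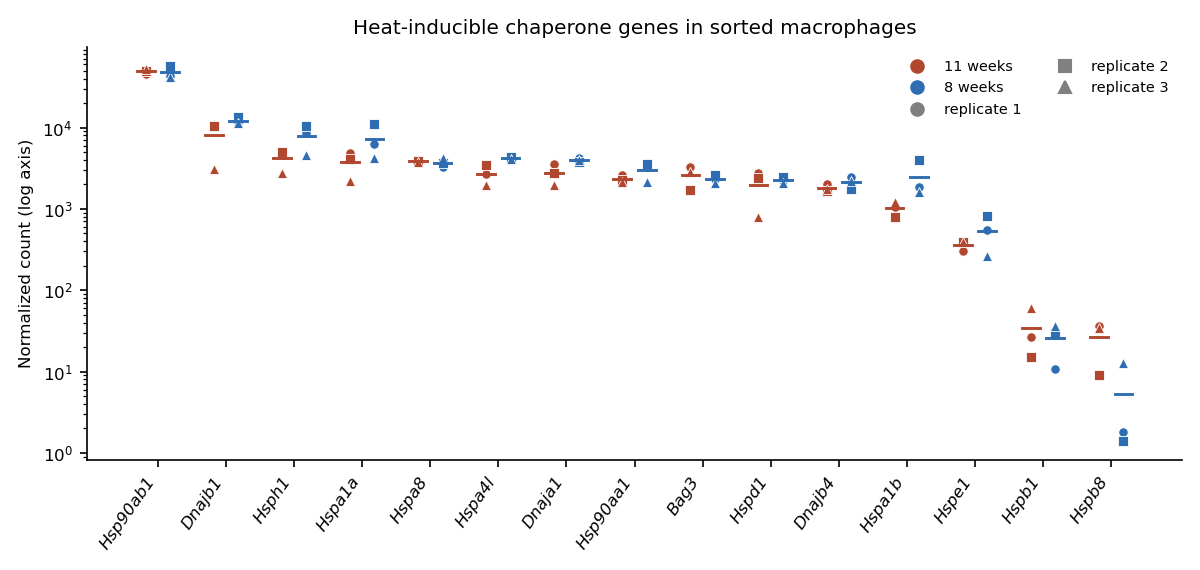
Normalized counts of the 15 heat-inducible members on a log axis, with 11-week libraries in red left of 8-week libraries in blue; symbols mark the replicate and ticks the mean of 3 libraries. Hspa1b, Hspa4l, Dnaja1 and Dnajb1 do not overlap between the ages, 8-week replicate 2 is high for Hspa1a, Hspa1b and Hsph1, and 11-week replicate 3 is low for Dnajb1 and Hspd1.

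Of the Hsp90 genes, Hsp90ab1 encodes the constitutive cytosolic form, Hsp90aa1 the inducible cytosolic form and Hsp90b1 the form of the endoplasmic reticulum. Hsp90ab1 had 46213.1, 49541.3 and 52024.5 normalized counts at 11 weeks, against 43620.6, 57619.2 and 42116.4 at 8 weeks. The 11-week values lay within the 8-week range, with a log2 fold change of 0.06 (SE 0.15, adjusted p = 0.927 by limma). Hsp90aa1 had 2576.4, 2291.4 and 2153.5 at 11 weeks, against 3257.1, 3574.3 and 2148.1 at 8 weeks. Its lowest value was 8-week replicate 3, next to 11-week replicate 3, and the log2 fold change was -0.33 (SE 0.26, adjusted p = 0.797 by limma). It was -0.18 without 8-week replicate 2 and -0.55 without 8-week replicate 3. Hsp90b1 (ENSMUSG00000020048, chromosome 10 from 86690209 to 86705509) had 34460.3, 37253.8 and 20540.6 at 11 weeks, against 43058, 40868.6 and 39560.1 at 8 weeks. All 8-week libraries were above, and 11-week replicate 3 was far below the rest. The log2 fold change was -0.47 (SE 0.19, adjusted p = 0.55 by limma), and it was -0.20 without that library.

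Hsp60, the product of Hspd1, and its cap Hsp10, the product of Hspe1, form the folding chamber of mitochondria, and their genes start from a shared promoter region. Hspd1 had 2782.4, 2372 and 798.5 normalized counts at 11 weeks, against 2222.8, 2443.8 and 2065.2 at 8 weeks. Hspe1 had 307.1, 392.1 and 389.7 at 11 weeks, against 543.9, 816 and 260.5 at 8 weeks. Both overlapped between the ages (limma adjusted p = 0.825 and 0.829), and the log2 fold change of Hspd1 was -0.36, or 0.20 without 11-week replicate 3. They did not follow each other across libraries, with Hspd1 lowest in 11-week replicate 3 and Hspe1 lowest in 8-week replicate 3. Their listed spans overlap by 112 bases on opposite strands, and the sources used here do not say whether counting used strand. The processed pseudogene Hspe1-ps5 had 0, 31.3 and 3.6 normalized counts at 11 weeks, against 25.9, 13.9 and 108.5 at 8 weeks. It was highest in 8-week replicate 3, where Hspe1 was lowest, and whether it drew reads from Hspe1 was not tested.

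The DnaJ genes of class A and B hold the co-chaperones that drive Hsp70 in protein folding. Dnajb1, the inducible Hsp40 (ENSMUSG00000005483, chromosome 8 from 83608175 to 83611902), had 10685.3, 10398.4 and 3136 normalized counts at 11 weeks, against 11606.4, 13410.5 and 11415 at 8 weeks. The ages did not overlap, but 2 of the 11-week libraries lay close under the 8-week libraries. The log2 fold change was -0.78 (SE 0.36, adjusted p = 0.622 by limma), and it was -0.20 without 11-week replicate 3. Dnaja1, which serves Hspa8 in the cytosol, had 3616.3, 2731.9 and 1989.4 at 11 weeks, against 4254, 3811.2 and 3946.8 at 8 weeks, with no overlap. The log2 fold change was -0.57 (SE 0.25, adjusted p = 0.598 by limma), and without 11-week replicate 3 it was -0.35. Dnaja2, a constitutive class A member, pointed the other way at 0.39 (SE 0.23, adjusted p = 0.725 by limma), with 3822.3, 6331.8 and 4976.8 at 11 weeks, against 4120.2, 4067.5 and 3216.5 at 8 weeks. It was at 0.21 without 11-week replicate 2. Mitochondrial Dnaja3 was level between the ages, at 660 ± 184 in 11-week and 635 ± 161 in 8-week libraries, and Dnaja4 was scarce, at 16.8 ± 15.8 in 11-week and 27 ± 27.3 in 8-week libraries (n = 3, SD; limma adjusted p = 0.98 and 0.859).

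Dnajb14 encodes an Hsp70 co-chaperone anchored in the membrane of the endoplasmic reticulum, and it had the lowest p of the whole set by limma. Its gene (ENSMUSG00000074212, chromosome 3 from 137867675 to 137916557) had 6077.8, 7912.5 and 6605.5 normalized counts at 11 weeks, against 9914.1, 11739.7 and 10735.1 at 8 weeks. The ages were clearly apart, with every 8-week library above every 11-week library. The log2 fold change was -0.66 (SE 0.18, adjusted p = 0.31 by limma), and it lay between -0.77 and -0.58 with any library left out. Dnajb13, a subunit of sperm flagella in mice, was also lower in every 11-week library, at 328.3, 404.2 and 628.1 against 754.3, 731.5 and 788.3 at 8 weeks (limma adjusted p = 0.637). Dnajb11, which serves the Hsp70 of the endoplasmic reticulum, did not separate the ages, with means of 4640 ± 1227 at 11 weeks and 4591 ± 607 at 8 weeks (n = 3, SD; adjusted p = 0.994 by limma). The inducible Dnajb4 averaged 1817 ± 188 at 11 weeks and 2132 ± 363 at 8 weeks (n = 3, SD; adjusted p = 0.833 by limma). Dnajb5 stood apart in 11-week replicate 1, with 614.2, 239.9 and 326.3 at 11 weeks, against 287.1, 257.7 and 260.5 at 8 weeks (limma adjusted p = 0.831). Class B as a whole had 9 of 12 tested members negative, with a median of -0.26, and class A 2 of 4, with a median of -0.26. With any library left out, the median lay between -0.27 and -0.10 for class B. For class A it lay between -0.34 and 0.16, so its sign turned.

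Class C holds DnaJ proteins with varied tasks, and it was even, with 13 tested members on each side of 0 and a median of 0.01. The fold changes of its 26 tested members ran from -1.09 to 2.11 (log2). The highest came from a gene with reads in 11-week replicate 3 only. Dnajc21, which acts in maturation of the large ribosomal subunit, had 856, 959.7 and 1583.4 normalized counts at 11 weeks, against 502.9, 673.3 and 340.8 at 8 weeks. Its ages did not overlap, with a log2 fold change of 1.16 (SE 0.38, adjusted p = 0.415 by limma). Dnajc28 was lower in every 11-week library, at 94.7, 137.1 and 143.2 against 238.1, 264.6 and 290.4 at 8 weeks (limma adjusted p = 0.662). Dnajc9, a histone chaperone that is high in dividing cells, had 691.5, 468.8 and 305.4 at 11 weeks, against 1274.1, 904.7 and 505.6 at 8 weeks, with overlap (limma adjusted p = 0.658). Dnajc24, which acts in diphthamide synthesis, had 431.2, 262.1 and 485.8 at 11 weeks, against 390.5, 37.4 and 211.8 at 8 weeks, also with overlap (limma adjusted p = 0.669). The most abundant class C genes by count were steady. Dnajc13, an endosomal protein, averaged 8752 ± 613 at 11 weeks and 9186 ± 569 at 8 weeks, and Dnajc3, an inhibitor of the kinase PERK, 8843 ± 1744 at 11 weeks and 9704 ± 1313 at 8 weeks (n = 3, SD; adjusted p = 0.926 and 0.847 by limma). Dnajc5, a chaperone of secretory vesicles, averaged 4853 ± 833 at 11 weeks and 5135 ± 749 at 8 weeks (n = 3, SD; adjusted p = 0.927 by limma).

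CCT is a ring of 8 different subunits present in equal number. Its genes were not uniform between libraries. In 11-week replicate 3 Cct3, Cct7 and Cct5 stood 0.87, 0.77 and 0.44 above their means over the 6 libraries on the log2 scale, while Tcp1, Cct4 and Cct8 stood at -1.09, -1.05 and -0.80. The distance between the highest and the lowest subunit was 1.96 in that library, against 0.58 and 0.82 in the other 11-week libraries and 0.66 to 0.82 in the 8-week libraries. As counts, Tcp1 had 2940.5, 4922.5 and 1348.6 normalized counts at 11 weeks, against 3745.8, 3732.2 and 2057.5 at 8 weeks. Cct3 had 1671.6, 2425.5 and 3843.8 at 11 weeks, against 1860, 2015.7 and 1505.8 at 8 weeks. Both overlapped between the ages.

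**Figure D3:**
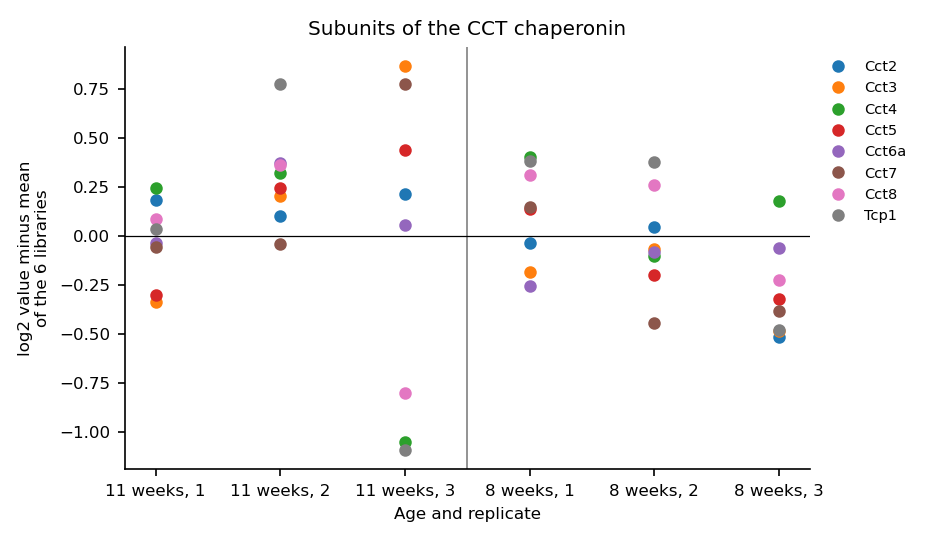
Log2 value of each of the 8 core CCT subunit genes minus its own mean over the 6 libraries, by library. The points spread over 1.96 in 11-week replicate 3 and over 0.58 to 0.82 in the other libraries.

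Across the ages 2 of the 10 CCT genes (20%) were higher in all 11-week libraries and 0 lower, where all genes gave 6.81% and 5.12%. Cct2 had 5800.1, 5468.9 and 5921.2 normalized counts at 11 weeks, against 4977.1, 5271.4 and 3572.7 at 8 weeks, and Cct6a had 2333.6, 3087.8 and 2487.9 at 11 weeks, against 1999.9, 2260.9 and 2294.1 at 8 weeks. Their log2 fold changes were 0.33 ± 0.21 and 0.26 ± 0.24 (SE; limma adjusted p = 0.743 and 0.814). Cct2 was at 0.16 without 8-week replicate 3, and Cct6a at 0.14 without 11-week replicate 2. Those of Cct3, Cct7, Cct5, Tcp1, Cct8 and Cct4 were 0.49, 0.45, 0.25, -0.19, -0.23 and -0.32, where limma gave adjusted p-values of 0.736, 0.732, 0.819, 0.907, 0.839 and 0.825. The last 3 turned positive without 11-week replicate 3, at 0.31, 0.11 and 0.12. Without the same library Cct3, Cct7 and Cct5 were at 0.18, 0.18 and 0.10. The testis forms Cct6b and Cct8l1 were near absent, and Cct8l1 had reads in 8-week replicate 3 only, at 61.5 normalized counts.

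BAG proteins exchange nucleotide on Hsp70 and carry it to other machines. Bag2, which restrains the ubiquitin ligase CHIP, had 127.8, 267.1 and 392.4 normalized counts at 11 weeks, against 109.7, 108.1 and 45.3 at 8 weeks. Bag5 had 906.6, 1426.4 and 1477.3 at 11 weeks, against 808.7, 856.2 and 605.6 at 8 weeks. Neither overlapped between the ages, though 11-week replicate 1 lay near the 8-week libraries for each. Their log2 fold changes were 1.53 ± 0.70 and 0.73 ± 0.33 (SE; limma adjusted p = 0.609 and 0.607). Bag1, which links Hsp70 to the proteasome, had 2579.1, 3811.6 and 4307 at 11 weeks, against 2685.6, 2648.8 and 1714.2 at 8 weeks, a log2 fold change of 0.60 (SE 0.27, adjusted p = 0.606 by limma), or 0.39 without 8-week replicate 3. Bag3, the heat-inducible member that directs clients to autophagy, had 3253.1, 1689.5 and 2846.8 at 11 weeks, against 2336.1, 2579.6 and 2078 at 8 weeks. Its ages overlapped widely, with a log2 fold change of 0.11 (SE 0.28, adjusted p = 0.928 by limma). Hspbp1, an exchange factor of Hsp70 unrelated to BAG, averaged 257 ± 101 at 11 weeks and 221 ± 89.8 at 8 weeks, and Hspb11, the ciliary transport gene, 71.7 ± 22.3 at 11 weeks and 107 ± 79.6 at 8 weeks (n = 3, SD). Bag6 was at 2070 ± 187 in 11-week and 2391 ± 399 in 8-week libraries, and Bag4 at 274 ± 179 in 11-week and 193 ± 228 in 8-week libraries (n = 3, SD; adjusted p = 0.839 and 0.803 by limma).

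The small heat shock proteins, which hold unfolded proteins without ATP, were scarce. Hspb1 had 26.7, 15.1 and 60.7 normalized counts at 11 weeks, against 10.7, 29.1 and 36.7 at 8 weeks, and Hspb8, the partner of Bag3, 36.8, 9.1 and 34.4 at 11 weeks, against 1.8, 1.4 and 12.8 at 8 weeks. Hspb6 was the highest of them by count, at 55.2, 204.6 and 102.4 at 11 weeks, against 325.4, 151 and 155.4 at 8 weeks. Hspb2 reached 56.5 in 11-week replicate 2 and was at or below 6.4 in the other libraries. None passed the test, and their adjusted p-values by limma were 0.945, 0.721, 0.795 and 0.643. The related crystallin gene Cryab, outside the symbol rule, lay between 5.5 and 83.8. These are levels at which a few reads set the fold change. Hspb3, Dnajb8, Dnajc5b, Dnajc5g and the second Dnajc19 row had no read in any library, which allows up to 3 reads per library by counting error alone; reads of amplified libraries are not independent molecules. Of the crystallin and outer dense fibre genes Cryaa, Cryab and Odf1, only Cryab could be tested (log2 fold change 0.14).

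Of the factors, Hsf1 (ENSMUSG00000022556, chromosome 15 from 76477445 to 76500972) had 1399.5, 1226.8 and 1146.5 normalized counts at 11 weeks, against 896.1, 505.7 and 773 at 8 weeks. Every 11-week library was above every 8-week library, and the log2 fold change was 0.83 (SE 0.33, adjusted p = 0.533 by limma). Hsf2 had 758.6, 703.6 and 397 at 11 weeks, against 453, 1184.5 and 527.8 at 8 weeks, with overlap (limma adjusted p = 0.941). The order of libraries for Hsf1 was not that of the inducible Hsp70 genes. Hsf1 was lowest in 8-week replicate 2, where Hspa1a, Hspa1b and Hsph1 were highest. Of 4 other heat shock factor genes outside the rule, 3 were positive and 1 negative with a median of 0.12, and their summed level reached at most 294 normalized counts. These are transcript levels, and the activity of the factor is set on the protein.

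The 15 heat-inducible members were listed with earlier results of these data known, so their direction is a description. Of them 10 had a negative and 5 a positive log2 fold change, with a median of -0.36, beside 0.052 over all genes tested. In 4 of the 15 (26.7%) the 11-week libraries all lay below the 8-week libraries, where all genes gave 5.12%, and in 0 they all lay above. All of the list but Hspb1 and Hspb8 averaged 100 normalized counts or more. Genes at that level gave 7.63% below and 7.66% above, with a median of -0.021. The highest library was 8-week replicate 2 for 8 of the 15, and the lowest was 11-week replicate 3 for 6. Over all genes tested, these libraries were highest for 3519 and lowest for 3218 of 21675. Genes at 0 in several libraries were counted as lowest in the first of them only, 11-week replicate 1 where it was at 0. The 3218 is therefore too low to set beside the list. The median of the list, each gene relative to its mean over the 6 libraries, was 0.03, -0.15 and -0.28 (log2) in the 11-week libraries and 0.31, 0.31 and 0.09 in the 8-week libraries. For members outside the list it was 0.03, 0.15 and -0.05 at 11 weeks and -0.001, -0.07 and -0.16 at 8 weeks.

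**Figure D4:**
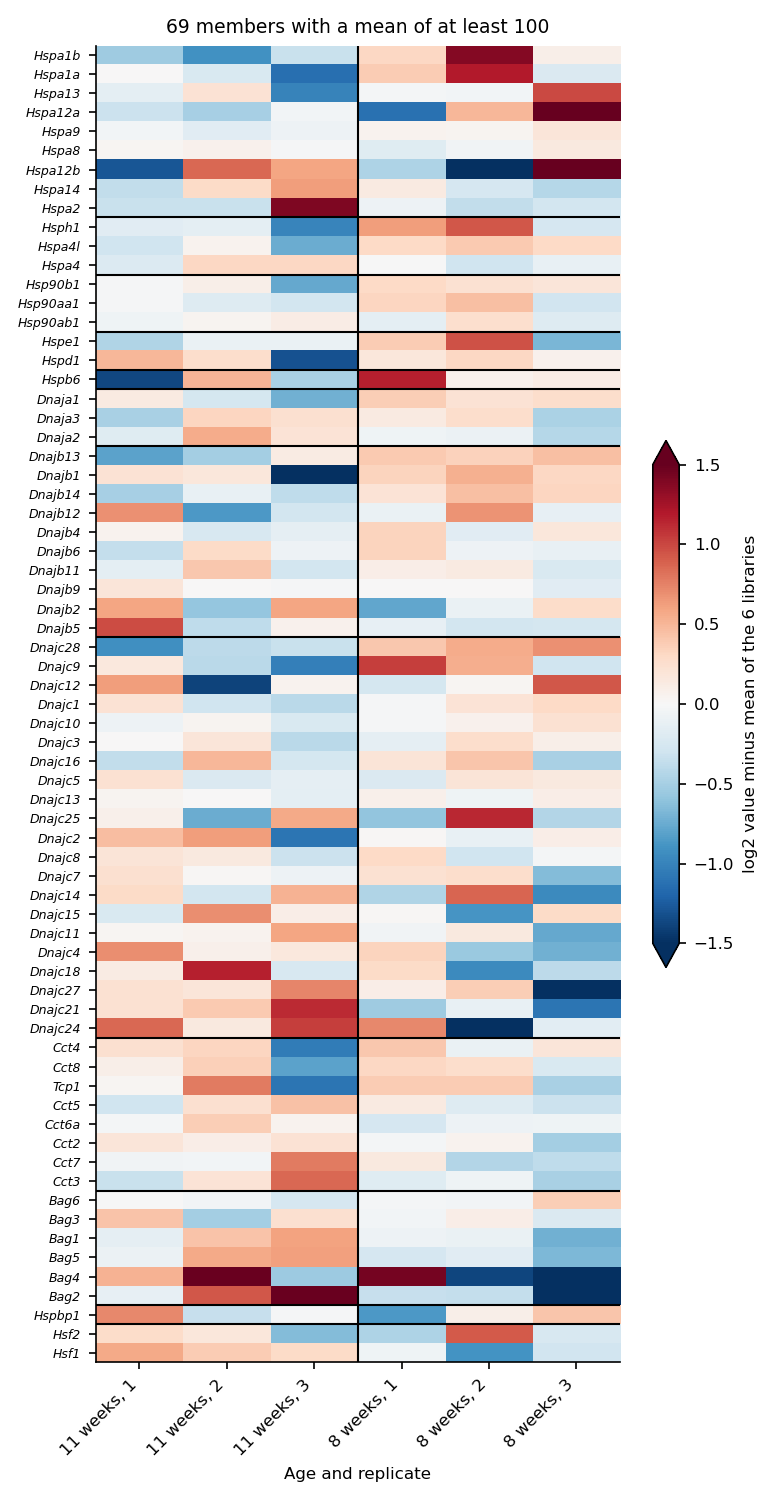
Log2 value of each of 69 members that averaged 100 normalized counts or more, minus its mean over the 6 libraries, with families separated by lines and 11-week libraries on the left. Colours end at 1.5 in either direction. Hspa1b, Hspa1a and Hsph1 are red in 8-week replicates 1 and 2, and the Cct genes split into red and blue in 11-week replicate 3.

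Levels between genes were compared per kilobase of exon in GENCODE M21, with all annotated exons of a gene merged into its length. How reads that match several genes or pseudogenes were counted is not stated. Ranks and ratios between genes may depend on this and on the annotated length. Hsp90ab1 led in every library, at 16425 ± 972 normalized counts per kb at 11 weeks and 15934 ± 2851 at 8 weeks (n = 3 each, SD). It made up 25.3% to 31.1% of the summed level of the set at 11 weeks and 22.8% to 27.1% at 8 weeks. Hsp90b1 came next, at 7627 ± 2220 normalized counts per kb at 11 weeks and 10209 ± 438 at 8 weeks. At 11 weeks Bag1 (2643 ± 660), Dnajb1 (2520 ± 1335) and Hspa4 (2401 ± 461) followed and did not differ beyond their spread. At 8 weeks Dnajb1 (3790 ± 344) ranked 3, with Hspa4 at 1962 ± 201 and Bag1 at 1742 ± 408 normalized counts per kb. Hspa1a ranked 11 at 11 weeks and 4 at 8 weeks, with 1260 ± 461 normalized counts per kb at 11 weeks and 2428 ± 1189 at 8 weeks. Hspa8 ranked 14 at 11 weeks with 892 ± 24.9 and 16 at 8 weeks with 860 ± 102. Hsp90aa1 stood at 595 ± 54.9 normalized counts per kb at 11 weeks and 761 ± 191 at 8 weeks, and its ratio to Hsp90ab1 in plain normalized counts was 0.041 to 0.056 at 11 weeks and 0.051 to 0.075 at 8 weeks.

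**Figure D5:**
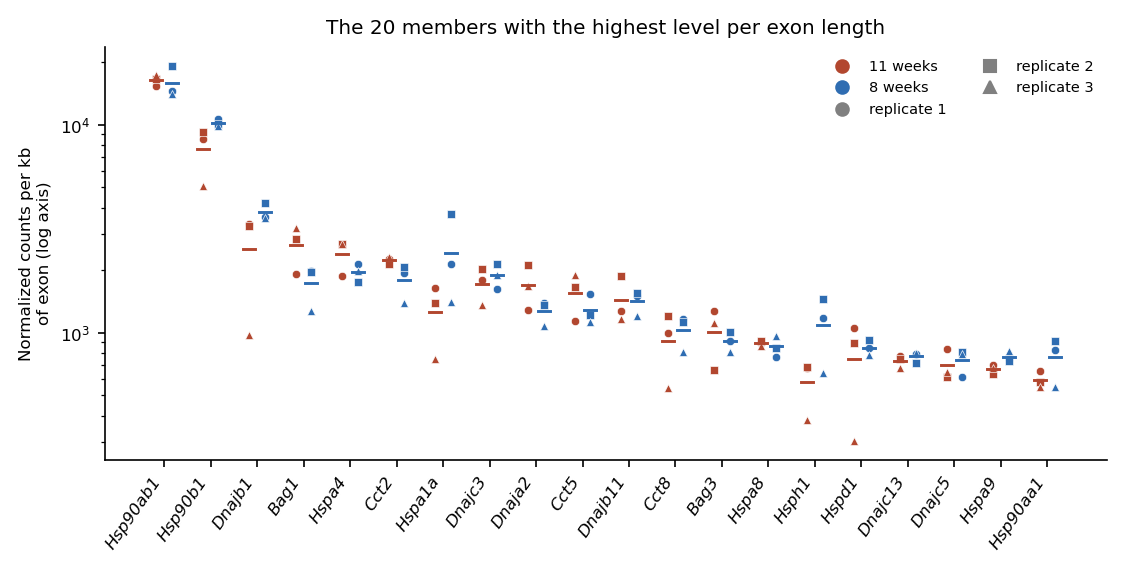
Normalized counts per kilobase of exon on a log axis for the 20 members with the highest mean level, with 11-week libraries in red left of 8-week libraries in blue and ticks at the mean of 3. Hsp90ab1 and Hsp90b1 lie above all others in every library, and Hsp90b1 is lowest in 11-week replicate 3.

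Genes that work with these chaperones but fall outside the symbol rule gave 0 calls with limma in every list. Of 23 co-chaperones of Hsp70 and Hsp90, 13 were positive and 10 negative with a median of 0.11, and 3 (13%) lay lower in all 11-week libraries and 0 higher, where all genes gave 5.12% and 6.81%. These were Tsc1, Chordc1 and Ahsa2. Chordc1, an Hsp90 partner that is itself induced by heat, had 2019.2, 1790.4 and 1355.9 normalized counts at 11 weeks, against 2091.8, 2321.9 and 3108.1 at 8 weeks (limma adjusted p = 0.646). Tsc1, which slows the ATPase of Hsp90, had 995.8, 734.9 and 723.3 at 11 weeks, against 1555, 1469.9 and 1555.3 at 8 weeks (limma adjusted p = 0.401). Of 15 genes outside the rule known as targets of heat shock factor 1, 10 were positive, with a median of 0.18. Chordc1, Stip1, Ahsa1, Fkbp4 and Cdc37 stand in both lists. Of the 15, Ranbp1 and Serpinh1 lay higher in all 11-week libraries (13.3%) and Chordc1 lower (6.67%). Serpinh1 had 107.6, 72.6 and 230.2 normalized counts at 11 weeks, against 34.8, 24.9 and 35 at 8 weeks (limma adjusted p = 0.609). Ranbp1, a regulator of nuclear transport, had 1448.2, 1486.9 and 1472.8 at 11 weeks, against 1096.7, 967 and 526.1 at 8 weeks (limma adjusted p = 0.532).

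Prefoldin and CCT cofactors had 9 of 12 positive with a median of 0.14, and the actin and tubulin genes whose products CCT folds 7 of 9 with a median of 0.08. Endoplasmic reticulum chaperones outside the rule had 13 of 18 positive with a median of 0.28, and 10 of 12 other mitochondrial chaperones and proteases were negative with a median of -0.20. In that mitochondrial list the 2 positive genes, Clpb and Afg3l2, were higher in all 11-week libraries (16.7%, where all genes gave 6.81%), and 0 genes were lower in all. Of 31 proteasome subunit genes 23 were positive with a median of 0.26, and 10 (32.3%) lay higher in all 11-week libraries, where all genes gave 6.81%. Psmd1 had 5324.7, 4977.9 and 5616.6 normalized counts at 11 weeks, against 4126.5, 3374.8 and 3278.9 at 8 weeks (limma adjusted p = 0.479).

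The 19 immediate-early genes, a class known to be induced when tissue is digested into single cells, were even, with 9 positive, 10 negative and a median of -0.005. Any part of digestion in the chaperone values was not tested. Their summed level was 514956 to 570917 normalized counts at 11 weeks and 507955 to 594093 at 8 weeks. Ier3 and Zfp36 were higher in all 11-week libraries and Btg2 and Jund lower, 10.5% each way, where all genes gave 6.81% and 5.12%. Ier3 had 20624.9, 13455.9 and 26865.1 at 11 weeks, against 11220.3, 12629.1 and 12779 at 8 weeks (limma adjusted p = 0.372). Btg2 had 9521.2, 9152.4 and 11216.1 at 11 weeks, against 11713.4, 13384.1 and 12893.4 at 8 weeks (limma adjusted p = 0.643).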

How the data were processed

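The 6 libraries of sorted macrophages were sequenced after low-input amplification with a Nugen kit, per the labels. STAR 2.4, DESeq2 1.6 and GRCm38 are named without roles in the submitters' processing notes, and no counting tool is named. The deposited signal, 1 value per gene and library, behaves as a gene count divided by a size factor, since at least 99.944% of values were whole multiples of 1 step within 0.05. In 11-week replicate 2 the step is 1.01, so close to 1 that low values alone do not tell it from 1. Over all values above 0 in that library, 99.951% fitted this step. Its recovered reads enter the edgeR, DESeq2 and limma-voom fits. For each gene the authors also deposited p-values, raw and adjusted, and their fold change as a log2 and as a ratio.

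Limma with trend and robust empirical Bayes was applied to log2(value + 1) of genes with a mean of at least 1 in either age, with age as the only term and Benjamini-Hochberg adjustment over all genes. Fits on recovered reads used edgeR, DESeq2 and limma-voom. Within an age, libraries differed far beyond sampling noise (chi-square over its degrees of freedom 116.25 to 331.5). Gene spans are the deposited ones, and 40 of 91 members overlap another listed gene. Exon lengths came from GENCODE M21 for 90 rows, and promoters from RefSeq for 73 symbols. Members and lists were chosen with earlier results of these data known. Members were named by rule: up to 4 with the smallest p and up to 3 with the highest mean per family, all heat-inducible, CCT and HSF genes, and up to 2 genes per other list. Hspa1l, Hspa2, Hspa12a, Hspa12b, Dnajb6, Hspb11, Hspbp1, Ahsa2, Zfp36, Jund and the Hspe1 promoter are not covered by it. They were picked once their values were seen. Scripts were tested on simulated data. Versions were R 4.3.3, Python 3.11.15, matplotlib 3.10.9, pandas 2.3.3, DESeq2 1.42.0, edgeR 4.0.16 and limma 3.58.1.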

Additional observations from a re-analysis of the deposited data

How the results depend on the processing

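No member was called with edgeR or in any limma fit, including the limma fits with 1 library left out. DESeq2 called 2 lower. Over all genes limma called 8 higher and 3 lower. These counts were 13 and 1 with edgeR, 265 and 153 with DESeq2, 20 and 6 with limma-voom, 4 and 0 when scaled to equal totals, 4 and 1 with a pseudocount of 10, and 1 lower with a trend that was not robust. They were 3 to 12 and 0 to 4 in the limma fits with 1 library left out. With the replicate number as a block they were 37 and 8, and 0 members were called. Deviations of same-numbered libraries correlated at -0.023, -0.009 and -0.014. Deviations from a mean of 3 libraries are tied to each other, so these values cannot decide whether the libraries were paired. The labels do not state it. Equal totals put the median of members at -0.145, and leaving out a library gave -0.078 to 0.02, against -0.055. Of 953 log2 fold changes for 53 named members over 18 settings, 926 kept their direction and 27 did not. Opposite signs came for Dnajb11 with edgeR (0.005) and DESeq2 (0.015), and with equal totals for Dnaja3 (-0.04), Hspa8 (-0.029) and Hsp90ab1 (-0.031). With 1 library left out, signs turned for 14 members, whose ranges were -0.082 to 0.39 for Bag3, -0.562 to 0.122 for Cct4, -0.472 to 0.108 for Cct8, -0.621 to 0.312 for Tcp1, -0.179 to 0.304 for Dnaja3, -2.034 to 0.473 for Dnaja4, -0.214 to 0.129 for Dnajb11, -0.271 to 0.018 for Dnajc3, -0.22 to 0.004 for Dnajc5, -0.407 to 0.286 for Hsf2, -0.701 to 0.199 for Hspd1, -0.019 to 0.149 for Hspa8, -0.027 to 0.199 for Hsp90ab1 and -0.165 to 0.804 for Hspb1. The cause was not tested. With 3 libraries an age and single libraries far from the others, most differences here lie within the spread, and genes with a few reads give no usable fold change.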
